A study of Homo sapiens with 34 samples.

Results

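The genes described here are 7 genes known from the embryonic organizer, node and notochord: GSC, LHX1, OTX2 and NOTO, which encode homeodomain transcription factors, CHRD and NOG, which encode the secreted BMP antagonists chordin and noggin, and SHH, which encodes the ligand sonic hedgehog. They were chosen by symbol, not by their values, from the 37951 gene identifiers of the count tables. Of these, 8 identifiers carry these symbols because LHX1 is listed under 2. The cells were wild-type ESI017 cells, an established line of human pluripotent stem cells (hPSCs), and 34 RNA sequencing libraries covered 17 conditions with 2 replicates each. The control was kept undifferentiated in mTeSR PLUS, for 48 h by its labels. On day 1 cells were directed for 24 h to 1 of 4 primitive streak (PS) populations. For DE(a) the medium contained activin at 100 ng/ml together with CHIR, an agonist of the Wnt pathway, at 2 µM. For APS (anterior PS) activin was used at 30 ng/ml, CHIR at 4 µM and bFGF at 20 ng/ml. MPS (mid PS) cells were given activin and bFGF as for APS, with BMP4 at 40 ng/ml and CHIR at 6 µM, and PPS (posterior PS) cells had the MPS factors with activin left out. Each population was then collected, or moved for a second day into DE(b), PM or LM medium and collected at 48 h. All 12 combinations of day 1 and day 2 treatment were measured. DE(b) medium, for definitive endoderm, held 100 ng/ml activin and 250 nM of the BMP receptor inhibitor LDN. PM medium, for paraxial mesoderm, held 250 nM LDN, 1 µM of the activin and TGFβ receptor inhibitor A8301, and 20 ng/ml bFGF. The labels list no Wnt agonist in PM medium, while the study's text describes Wnt activation in it, so whether CHIR was present is not known here. LM medium, for lateral mesoderm, combined the Wnt secretion inhibitor IWP2 at 4 µM with A8301 at 1 µM and BMP4 at 30 ng/ml. All libraries came from 1 cell line in culture, with no germ layers or notochord around the cells.

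In vertebrate embryos the organizer, or node, forms at the anterior end of the PS, where Nodal signalling is high, and gives rise to the anterior mesendoderm, the prechordal plate and the notochord. GSC, LHX1 and OTX2 act in the anterior mesendoderm and in head formation, and OTX2 is also active in pluripotent cells and in the anterior neural ectoderm. Chordin and noggin bind BMP ligands outside the cell and keep them from their receptors, and NOG is itself induced by BMP signalling in several tissues. NOTO is a notochord and node factor, and SHH, made by the notochord, signals through the receptor PTCH1 and the GLI transcription factors.

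In GENCODE v44 on GRCh38, GSC (ENSG00000133937) lies on chromosome 14 from 94768223 to 94770113 and OTX2 (ENSG00000165588) on the same chromosome from 56799905 to 56816693, both on the minus strand. LHX1 (ENSG00000273706, plus strand) lies on chromosome 17 from 36936785 to 36944612, and its second identifier in the tables, ENSG00000274577, has no entry in that annotation. NOG (ENSG00000183691, plus strand) lies on chromosome 17 from 56593699 to 56595611. CHRD (ENSG00000090539, plus strand) lies on chromosome 3 from 184380054 to 184390736, SHH (ENSG00000164690, minus strand) on chromosome 7 from 155799980 to 155812463 and NOTO (ENSG00000214513, plus strand) on chromosome 2 from 73202574 to 73212513. Counts of the 2 LHX1 identifiers were added, and 87.6% of them came from ENSG00000274577.

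In DE(b) medium, which held activin and LDN, OTX2 rose after all 4 day 1 treatments. GSC rose after PPS (5.86 ± 0.43 SE), by less after APS and MPS, and was not called after DE(a) (below). The sequences before the starts of GSC and OTX2 are shown because activin acts through SMAD proteins with FOXH1 as a DNA-binding partner. RefSeq (GRCh38.p14) held promoter windows of 300 bases, 250 before and 50 after the start, for 5 of the 7 genes, with 2 windows for OTX2. Capitals mark matches to TGTNNATT, a FOXH1 motif, or to CAGACA, a SMAD motif, on either strand. The GSC window is chr14:94770064-94770363, and the OTX2 windows are chr14:56810430-56810729 and chr14:56805618-56805917, all on the minus strand and written 5′ to 3′.
GSC: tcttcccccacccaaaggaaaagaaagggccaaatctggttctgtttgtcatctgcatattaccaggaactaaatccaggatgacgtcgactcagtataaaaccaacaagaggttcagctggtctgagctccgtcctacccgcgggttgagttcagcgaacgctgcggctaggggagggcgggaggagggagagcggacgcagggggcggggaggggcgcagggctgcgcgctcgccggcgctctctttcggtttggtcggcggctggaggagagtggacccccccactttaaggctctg
OTX2, first window: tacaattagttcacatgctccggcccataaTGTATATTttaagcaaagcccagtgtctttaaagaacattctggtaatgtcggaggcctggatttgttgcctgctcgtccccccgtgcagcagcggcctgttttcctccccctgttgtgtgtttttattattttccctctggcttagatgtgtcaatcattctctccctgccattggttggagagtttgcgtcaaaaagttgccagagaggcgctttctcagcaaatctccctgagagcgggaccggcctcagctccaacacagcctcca
OTX2, second window: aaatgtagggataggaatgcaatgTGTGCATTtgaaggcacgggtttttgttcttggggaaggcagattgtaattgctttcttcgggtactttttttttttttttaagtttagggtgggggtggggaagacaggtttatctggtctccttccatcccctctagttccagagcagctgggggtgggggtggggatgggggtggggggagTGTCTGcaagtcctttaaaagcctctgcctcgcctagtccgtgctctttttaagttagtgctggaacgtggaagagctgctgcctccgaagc

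Each OTX2 window held 1 match to the FOXH1 motif, at −220 and −226 from the start, and the second held a reverse match to the SMAD motif. The first motif was present in 11.1% of 34796 promoter windows and the second in 16.9%. Further motifs were searched on both strands: TAATCC, bound by homeodomains of the GSC and OTX2 type (6.35% of windows), CTTTGAT of TCF and LEF factors (2.62%), GGTGTGA of T-box factors (3.46%) and TGTTTAC of forkhead factors (3.42%). None of the 6 motifs was found in the GSC, CHRD and SHH windows, and the NOTO window held a single CAGACA. A match describes the letters of a window and is not a measured binding site.

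Depth was similar across the series, with 15522780 to 23439799 estimated counts per library, so that 3 counts, taken here as the floor, stood for 0.128 to 0.193 CPM, the unit of counts scaled to a common library total. Differences are log2 fold changes with their standard error (SE) from edgeR's quasi-likelihood test on all 34 libraries, with a gene called at a Benjamini-Hochberg adjusted p under 0.05 over 17888 genes. 6 of the 7 genes passed the filter on low counts, and NOTO did not. In bulk RNA, fewer cells that express a gene and less RNA per cell cannot be told apart. Where 1 of 2 conditions was at or under the floor, a fold is given as the ratio of summed counts with its exact 95% interval, which covers counting error only, or as a lower bound of 3 counts per library where both libraries had none. The summed level of 5 definitive endoderm markers was 3459 to 6446 CPM in DE(b) libraries and at most 335 CPM in PM and LM. That of 5 paraxial mesoderm markers was 882 to 1235 CPM in PM and at most 175 CPM in DE(b) and LM. For 5 lateral mesoderm markers it was 650 to 2738 CPM in LM and 80.7 to 174 CPM in PM. In DE(b) libraries the lateral mesoderm sum was 124 to 771 CPM, which overlapped the LM range.

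At 24 h, GSC, LHX1 and OTX2 were high in DE(a) and near background in PPS, while CHRD and NOG had the opposite order. GSC was at 0.0452 and 0 CPM in the 2 control libraries. It reached 82.5 and 68.7 CPM in DE(a), 39.8 and 42.6 CPM in APS and 30.1 and 26.4 CPM in MPS, but 0.395 and 0.602 CPM in PPS. PPS thus lay far below the 3 populations that had received activin. Against the single count of the control group, the count ratio was 3102 for DE(a) (95% interval 556 to 122537) and 20.0 for PPS (3.16 to 833), and all 4 populations were called higher. LHX1 was at 0.903 and 0.425 CPM in the control, 132 and 68.1 CPM in DE(a), 61.7 and 25.4 CPM in APS, 25.1 and 9.62 CPM in MPS, and 2.57 and 1.93 CPM in PPS. Its replicates differed by more than those of GSC. The difference from the control was called for DE(a) (log2 fold change 7.29 ± 0.63 SE, edgeR adjusted p = 3.08e-08), APS and MPS. For PPS it was not called (adjusted p = 0.0662).

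OTX2 differed from both in its start, since the undifferentiated control already held 56.4 and 50 CPM. Its level was 87.2 and 81.1 CPM in DE(a), 71.8 and 50.7 CPM in APS, 19.6 and 14.2 CPM in MPS, and 0.642 and 0.722 CPM in PPS. DE(a) and APS were not called different from the control (DE(a), 0.76 ± 0.46 SE, adjusted p = 0.308), whereas OTX2 was lower in MPS (−1.55 ± 0.48 SE, adjusted p = 0.0168) and in PPS. The MPS call was lost without 1 control library (adjusted p = 0.069 without replicate 1) and without 1 MPS library (adjusted p = 0.133 without replicate 2). NOTO, the notochord factor, had its highest values in the control, at 0.271 and 0.957 CPM, and was at or under 3 counts in every differentiated library, so that it was not detectable above the floor in any differentiated culture.

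Of the antagonists, CHRD was at 1.35 and 0.96 CPM in the control, 0.881 and 0.322 CPM in DE(a), 0.52 and 0.504 CPM in APS, 2.26 and 2.88 CPM in MPS and 11.8 and 15.5 CPM in PPS. Only PPS and MPS were called higher than the control, PPS by 3.57 ± 0.46 SE (edgeR adjusted p = 3.08e-06) and MPS by 1.24 ± 0.45 SE (adjusted p = 0.0419). These 2 populations had both BMP4 and the highest CHIR dose, 6 µM, which cannot be told apart here. The MPS call did not hold without any 1 of the 4 libraries compared (adjusted p 0.0741 to 0.227). NOG was likewise highest in PPS and next in MPS, but unlike CHRD it was lowest in the control. It was at 0.0452 and 0.0532 CPM in the control, 0.207 and 0.429 CPM in DE(a), 0.426 and 1.14 CPM in APS, 18.1 and 27.5 CPM in MPS and 36.3 and 45.2 CPM in PPS. Its ratio to the 2 counts of the control group was 460 in MPS (127 to 3805) and 825 in PPS (228 to 6822). In DE(a) the ratio was 6.48 (1.44 to 59.6) with an edgeR adjusted p of 0.0412. This call was lost in 3 of 4 fits that left out 1 library (without control replicate 1, control replicate 2 or DE(a) replicate 2, adjusted p 0.143 to 0.283). SHH stayed low throughout, at 1.87 and 1.82 CPM in DE(a), 1.61 and 1.14 CPM in APS, 0.521 and 0.147 CPM in MPS and 0.444 and 0.241 CPM in PPS, against 0.452 and 0.0532 CPM in the control. It was called higher in DE(a) and APS (adjusted p = 0.00953 and 0.0211), and without control replicate 2 neither call held (adjusted p = 0.129 and 0.205), nor did that of APS without its replicate 1 (adjusted p = 0.0935).

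**Figure D1:**
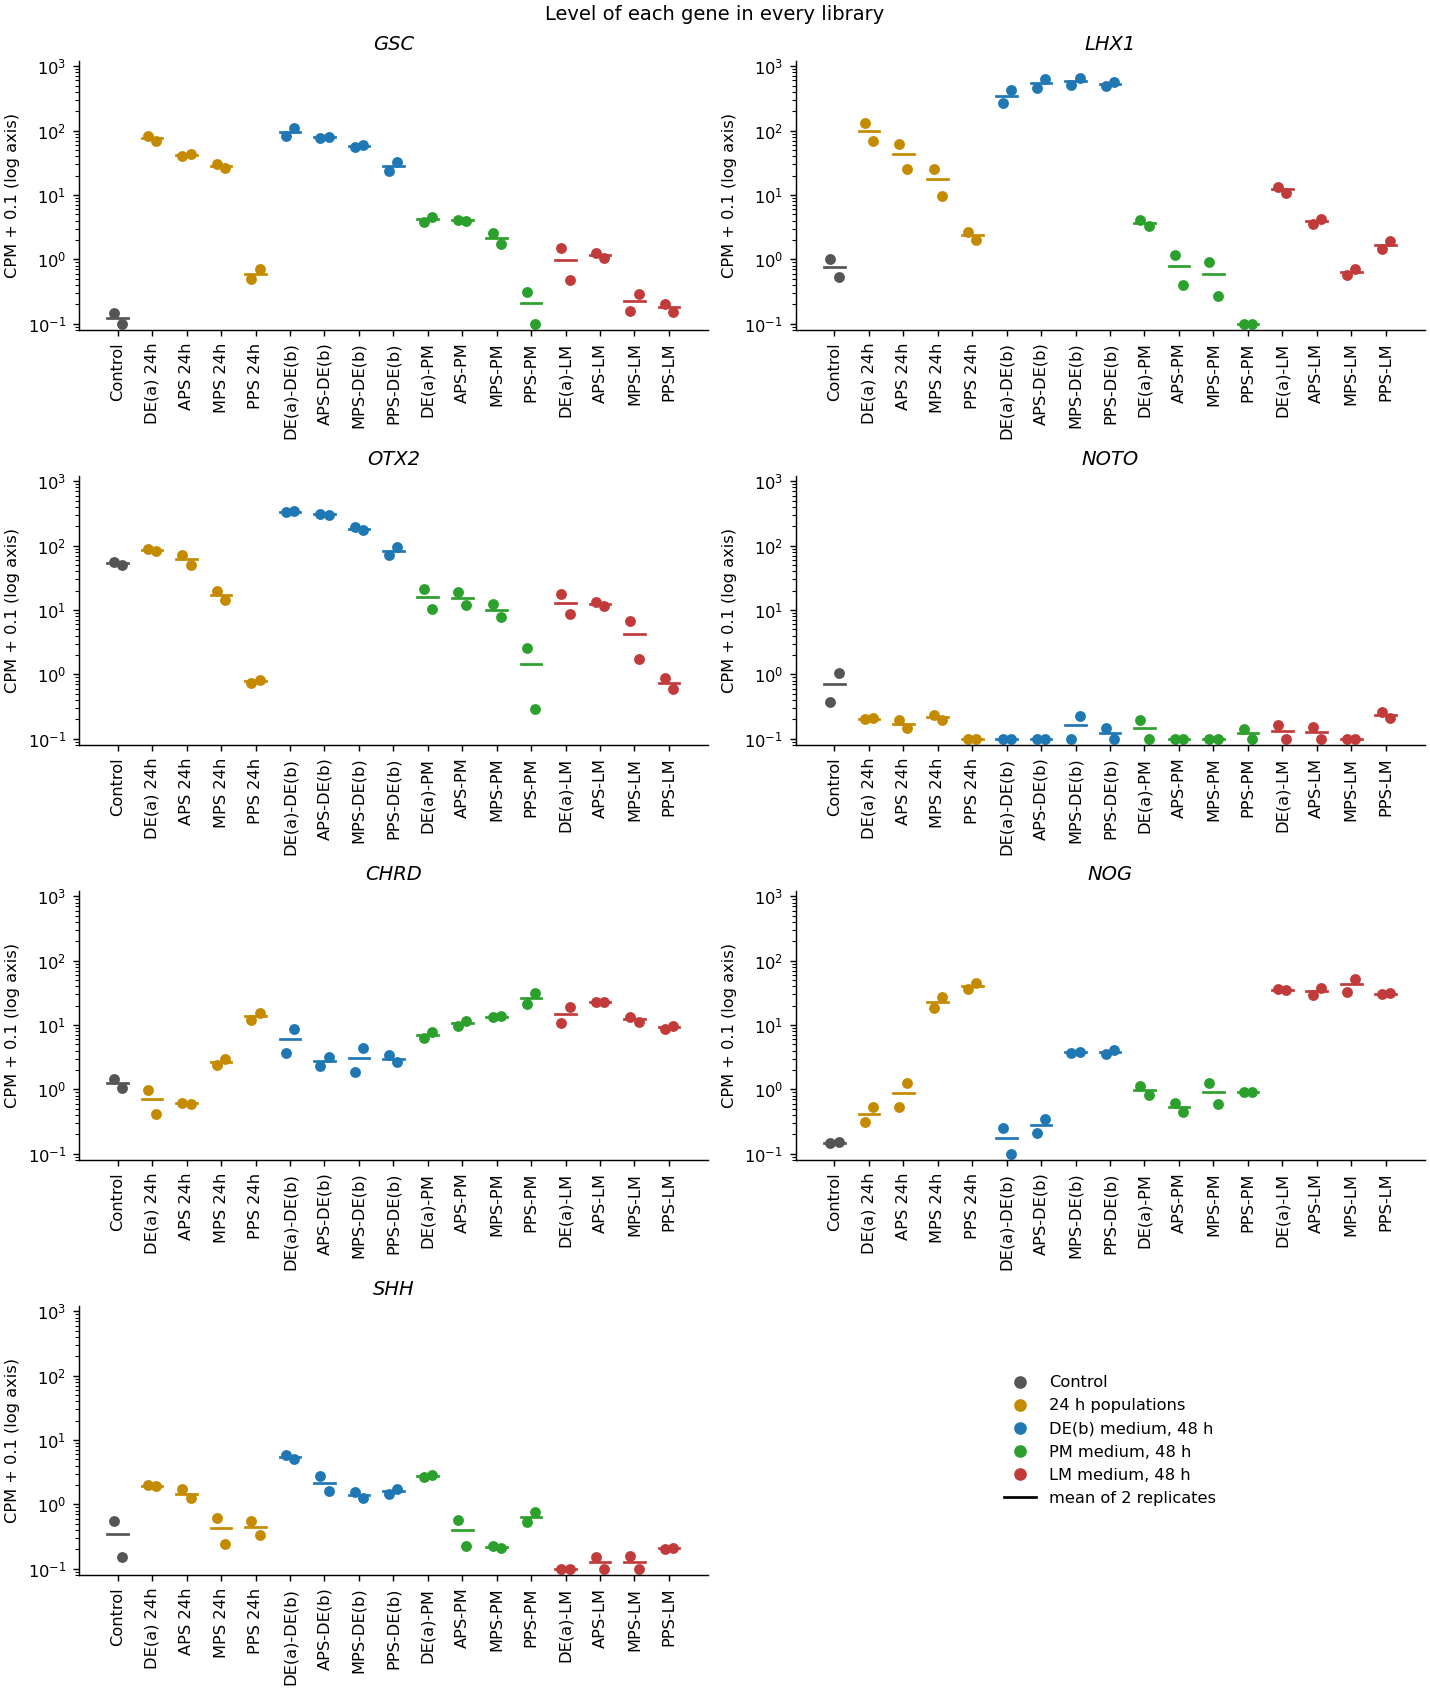
Level of each of the 7 genes in every library, as CPM plus 0.1 on a log axis, by condition; points are the 2 replicates and short lines their mean. The highest means of GSC, LHX1 and OTX2 are in DE(b) medium (blue), but only for LHX1 do all DE(b) conditions exceed all others. NOG is at 29.6 CPM or more in all 8 LM libraries (red) and NOTO stays below 1 CPM in every library.

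In all, 17 of 24 tests of the 24 h populations against the control were called, 15 higher and 2 lower. Over all genes 14.2% of such tests were called higher and 11.6% lower. The 4 contrasts share the 2 control libraries. Steps between neighbouring populations were called less often in general (1.77% higher and 1.5% lower over all genes), and 7 of 18 were called for these genes. Between APS and DE(a) the count was 0 of 6 by edgeR, with 3 at an unadjusted p under 0.05 and 1 called by DESeq2. From APS to MPS, the step at which BMP4 was added and CHIR raised, NOG rose by 4.86 ± 0.43 SE (adjusted p = 1.17e-06), CHRD rose by 2.33 ± 0.49 SE (adjusted p = 0.0082) and OTX2 fell by 1.84 ± 0.48 SE (adjusted p = 0.0384). Leaving out 1 library ended the call for OTX2 in each of 4 fits (adjusted p 0.0791 to 0.323) and that for CHRD without either APS replicate or MPS replicate 2 (adjusted p 0.0638 to 0.105). From MPS to PPS, the step without activin, GSC fell by 5.90 ± 0.42 SE (adjusted p = 4.49e-08), OTX2 fell by 4.70 ± 0.67 SE and LHX1 fell by 3.02 ± 0.53 SE, while CHRD rose by 2.33 ± 0.43 SE (adjusted p = 0.00158). Without MPS replicate 1 the last 2 were no longer called (adjusted p = 0.0551 for LHX1 and 0.0539 for CHRD). An F-test over the 4 populations called 6 of 6 genes, against 18.8% of all genes.

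DE(b) medium gave the highest levels of all 3 transcription factors. LHX1 reached 268 and 431 CPM from DE(a), 466 and 640 CPM from APS, 515 and 666 CPM from MPS and 485 and 567 CPM from PPS, and the 3 latter conditions overlapped. From PPS, where LHX1 had been at 2.57 and 1.93 CPM a day before, it rose by 7.90 ± 0.60 SE (edgeR adjusted p = 8.28e-09). From MPS it rose by 5.01 ± 0.51 SE, from APS by 3.62 ± 0.47 SE and from DE(a) by 1.73 ± 0.44 SE (adjusted p = 0.00513). The last of these was not called without DE(a) replicate 2 of 24 h or DE(a)-DE(b) replicate 2 (adjusted p 0.0813 and 0.0716). OTX2 was at 327 and 344 CPM from DE(a), 312 and 303 CPM from APS, 194 and 174 CPM from MPS and 71.1 and 94.1 CPM from PPS. Although these means fell in order, edgeR called neither APS-DE(b) (−0.11 ± 0.46 SE, adjusted p = 0.989) nor MPS-DE(b) (−0.86 ± 0.46 SE, adjusted p = 0.368) against DE(a)-DE(b). OTX2 rose over its 24 h level from every population, by 1.92 ± 0.47 SE from DE(a) (adjusted p = 0.00415) and by 6.96 ± 0.68 SE from PPS (adjusted p = 1.65e-07). Since OTX2 is also active in anterior neural ectoderm, markers of that tissue were summed, and they came to 2.17 to 15.9 CPM over 6 genes in DE(b) libraries and 13.4 to 17.1 CPM in the control. Of the 4 markers tested, 2 were called higher and 0 lower than at 24 h from DE(a), from APS and from MPS, and 1 was higher from PPS, while SOX1 was at or under 3 counts in all DE(b) libraries. Their part in the level of OTX2 was not tested.

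GSC was at 83.5 and 108 CPM in DE(b) medium from DE(a), 77.7 and 79.3 CPM from APS, 56.2 and 60.5 CPM from MPS and 23.1 and 32.9 CPM from PPS. From DE(a) it had been as high already, and the change was 0.27 ± 0.29 SE (adjusted p = 0.538). From PPS it rose by 5.86 ± 0.43 SE (adjusted p = 2.47e-09), and yet its mean there was 28.0 CPM against 95.8 CPM from DE(a). The rises from APS (0.88 ± 0.30 SE, adjusted p = 0.0278) and MPS (0.98 ± 0.30 SE, adjusted p = 0.0177) were not called in 4 of 4 and 2 of 4 fits that left out 1 library (APS, adjusted p 0.0711 to 0.109; MPS without replicate 2 of either time, 0.0816 and 0.11). SHH had its highest level of the series in DE(a)-DE(b), 5.73 and 5.00 CPM, followed by 2.65 and 1.53 CPM from APS, 1.45 and 1.16 CPM from MPS and 1.35 and 1.64 CPM from PPS. None of its 4 changes over 24 h was called, from DE(a) (1.46 ± 0.68 SE, adjusted p = 0.121) to PPS (2.13 ± 0.75 SE, adjusted p = 0.0504).

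In DE(b) medium, which held activin and the BMP receptor inhibitor, CHRD rose from DE(a) and APS and fell from PPS, and NOG fell from APS, MPS and PPS. CHRD lay at 3.55 and 8.45 CPM from DE(a), 2.17 and 3.11 CPM from APS, 1.75 and 4.26 CPM from MPS and 3.27 and 2.56 CPM from PPS. The ranges of the latter 3 overlapped. The change was a rise of 3.22 ± 0.49 SE from DE(a) (adjusted p = 3.79e-05) and of 2.30 ± 0.49 SE from APS, but CHRD fell by 2.18 ± 0.42 SE from PPS (adjusted p = 0.000656). NOG was at 0.148 and 0 CPM from DE(a) and 0.11 and 0.247 CPM from APS, with 3.61 and 3.69 CPM left from MPS and 3.44 and 3.96 CPM from PPS. It fell by 2.71 ± 0.38 SE from MPS and by 3.42 ± 0.38 SE from PPS (adjusted p = 1.16e-06). The fall from APS (−2.12 ± 0.60 SE, adjusted p = 0.0102) rested on 2 and 5 counts in APS-DE(b). It was not called without APS replicate 2 of 24 h or without APS-DE(b) replicate 1.

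In PM medium, which held LDN, A8301 and bFGF, GSC and LHX1 fell from every population and CHRD rose from 3 of 4. Each day 2 medium held several factors, whose separate parts in these changes cannot be told apart here. GSC was at 3.65 and 4.49 CPM from DE(a), 3.96 and 3.86 CPM from APS, 2.46 and 1.62 CPM from MPS and 0.216 and 0 CPM from PPS. It fell by 4.34 ± 0.35 SE from DE(a) (adjusted p = 1.16e-08), and its fall from the low level of PPS (adjusted p = 0.047) was lost in 3 of 4 fits (without either PPS replicate of 24 h or PPS-PM replicate 2, adjusted p 0.0593 to 0.307). LHX1 was at 4.04 and 3.14 CPM from DE(a), 1.05 and 0.299 CPM from APS and 0.82 and 0.167 CPM from MPS, and no count was found in either PPS-PM library, at least 16.5-fold lower than in PPS at 24 h (adjusted p = 0.000663). OTX2 was at 21.4 and 10.4 CPM from DE(a), 18.7 and 11.7 CPM from APS, 12.3 and 7.59 CPM from MPS, and 2.47 and 0.19 CPM from PPS. It fell from DE(a) (−2.52 ± 0.49 SE, adjusted p = 0.000653) and from APS (−2.12 ± 0.49 SE, adjusted p = 0.00248, but 0.0509 without APS-PM replicate 2). Its changes from MPS (adjusted p = 0.222) and PPS (adjusted p = 0.463) were not called.

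CHRD rose in PM medium to 6.21 and 7.69 CPM from DE(a) (3.39 ± 0.49 SE, adjusted p = 2.25e-05), 9.47 and 11.5 CPM from APS (4.24 ± 0.49 SE, adjusted p = 1.44e-06) and 13.1 and 13.8 CPM from MPS (2.27 ± 0.43 SE, adjusted p = 0.000423). From PPS it was at 21.4 and 30.9 CPM, the highest mean of the series, which was 0.91 ± 0.40 SE above its 24 h level and not called (adjusted p = 0.115). By their means, the order of CHRD in PM medium, from DE(a) up to PPS, was the reverse of that of GSC. NOG parted from CHRD here: it was at 1.03 and 0.729 CPM from DE(a), 0.526 and 0.341 CPM from APS, 1.14 and 0.502 CPM from MPS and 0.824 and 0.809 CPM from PPS. From its high level in PPS at 24 h NOG fell by 5.66 ± 0.44 SE (adjusted p = 1.32e-08). SHH was at 2.59 and 2.81 CPM in DE(a)-PM and at or under 0.666 CPM in the other 6 PM libraries.

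In LM medium, which held BMP4, A8301 and IWP2, NOG was at 29.6 CPM or more after each of the 4 day 1 treatments. It was at 35.9 and 34.3 CPM from DE(a), 29.6 and 38.0 CPM from APS, 33 and 52.6 CPM from MPS and 30.3 and 31.2 CPM from PPS. These were rises of 6.64 ± 0.49 SE from DE(a) (adjusted p = 2.59e-09) and 5.37 ± 0.44 SE from APS (adjusted p = 5.3e-09). From PPS, which was high before, the change was −0.36 ± 0.34 SE (adjusted p = 0.501). CHRD was also high, at 10.8 and 19.2 CPM from DE(a), 22.7 and 22.8 CPM from APS, 13.4 and 11.1 CPM from MPS and 8.44 and 9.69 CPM from PPS. It rose by 5.41 ± 0.51 SE from APS (adjusted p = 3.7e-08) and by 4.51 ± 0.49 SE from DE(a), and changed by −0.54 ± 0.40 SE from PPS (adjusted p = 0.362). Amnion markers, a cell type that BMP can induce in hPSCs, summed to 78.6 to 453 CPM over 5 genes in LM libraries against 1.28 to 24.3 CPM in DE(b) and PM. Their part in the levels of NOG and CHRD was not tested.

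The transcription factors were low in LM medium, with a remnant that depended on day 1. LHX1 was at 13.4 and 10.8 CPM from DE(a), 3.46 and 4.19 CPM from APS, 0.465 and 0.617 CPM from MPS and 1.37 and 1.80 CPM from PPS. It fell by 3.18 ± 0.47 SE from DE(a) (adjusted p = 2.77e-05). GSC was at 1.40 and 0.383 CPM from DE(a), 1.14 and 0.966 CPM from APS, 0.0582 and 0.191 CPM from MPS and 0.105 and 0.0547 CPM from PPS. From DE(a) it fell by 6.6 ± 0.41 SE (adjusted p = 3.91e-10). OTX2 was at 17.4 and 8.45 CPM from DE(a), 13.4 and 11.5 CPM from APS, 6.64 and 1.66 CPM from MPS and 0.788 and 0.492 CPM from PPS. SHH was at or under 3 counts in all 8 LM libraries and had none in those from DE(a), at least 11-fold below DE(a) at 24 h (adjusted p = 4.44e-05).

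**Figure D2:**
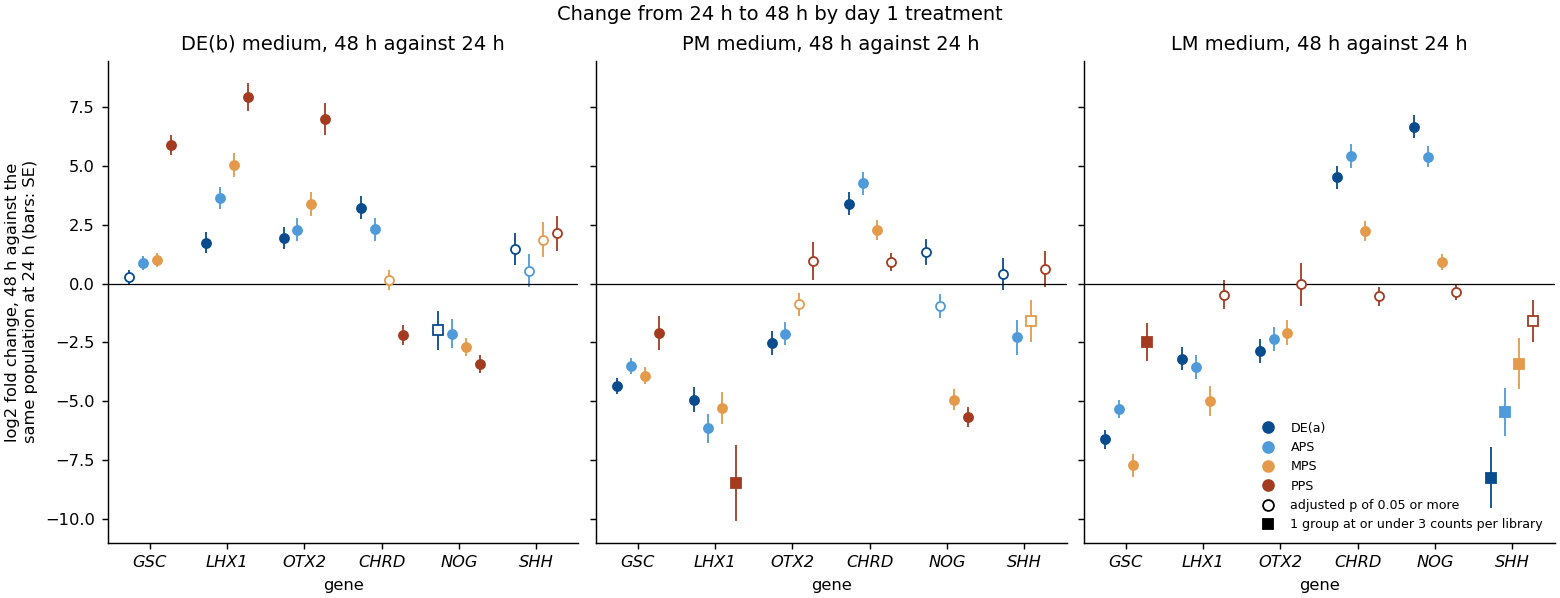
Log2 fold change of 6 genes (x axis) from 24 h to 48 h in each day 2 medium, with a point for each day 1 treatment and bars of 1 SE; filled points are called by edgeR, and squares mark changes with a condition at or under 3 counts per library, whose size depends on the model's prior. From PPS (dark red), LHX1, OTX2 and GSC rose most in DE(b) medium, and CHRD and NOG changed least in LM medium.

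Over the 12 changes from 24 h to 48 h, 52 of 72 tests of the 6 genes were called, 22 higher and 30 lower, against 13.2% higher and 13.8% lower over all genes. Each 24 h population served as the base of 3 of these contrasts. For GSC 3 were called higher and 8 lower, for LHX1 4 and 7, for OTX2 4 and 5, for CHRD 8 and 1, for NOG 3 and 5, and for SHH 0 and 4.

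The media were also compared with each other within a day 1 treatment, where 58 of 72 tests were called (40 higher and 18 lower in the first-named medium; 10.5% and 9.79% over all genes). GSC and OTX2 were higher in DE(b) than in PM and in LM in 8 of 8 tests each, and so was LHX1. For LHX1 the difference between DE(b) and LM was 4.91 ± 0.51 SE after DE(a) (edgeR adjusted p = 4.18e-07) and 7.17 ± 0.57 SE after APS (adjusted p = 6.14e-09). After PPS its level in DE(b) was at least 3864-fold that in PM. Between the 2 media without activin, LHX1 was higher in LM than in PM after DE(a) (1.74 ± 0.50 SE, adjusted p = 0.0176), APS (2.58 ± 0.66 SE, adjusted p = 0.00632) and PPS, and GSC was lower in LM after DE(a), APS and MPS. The LHX1 difference after DE(a) was not called in 3 of 4 fits that left out a library (without either DE(a)-PM replicate or DE(a)-LM replicate 1, adjusted p 0.0613 to 0.14), and that after APS was not called without APS-PM replicate 2 (adjusted p = 0.0984). NOG was higher in LM than in PM after each day 1 treatment, by 5.29 ± 0.44 SE after DE(a), 6.34 ± 0.47 SE after APS, 5.83 ± 0.45 SE after MPS and 5.30 ± 0.44 SE after PPS (adjusted p 1.54e-09 to 1.09e-08). CHRD showed no such fixed order: it was higher in LM after APS (1.18 ± 0.40 SE, adjusted p = 0.0378) and lower in LM after PPS (−1.45 ± 0.40 SE, adjusted p = 0.0106). The first of these was lost without any 1 of its 4 libraries (adjusted p 0.0923 to 0.211) and the second without PPS-PM replicate 2 or PPS-LM replicate 1 (adjusted p 0.095 and 0.114).

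Levels of different genes were compared per kb of exon, on the union of exons in GENCODE v44. For LHX1 this length is of the identifier found in that annotation, while 87.6% of its counts came from the other identifier. The rank of LHX1 among the genes depends on that length. On this scale, in CPM per kb, GSC was the highest of the 3 transcription factors in DE(a) at 24 h, at 66.3 ± 8.57 (SD, n = 2) against 24.8 ± 1.28 for OTX2 and 20.4 ± 9.24 for LHX1. In DE(a)-DE(b) the 3 genes lay close, OTX2 at 98.6 ± 3.57, GSC at 84 ± 15.2 and LHX1 at 71.1 ± 23.5, and their replicates nearly touched or overlapped. In PPS-DE(b) LHX1 stood apart at 107 ± 11.8, while OTX2 was at 24.3 ± 4.8 and GSC at 24.6 ± 6.08. Of the antagonists, NOG exceeded CHRD in PPS at 24 h (21.3 ± 3.31 against 2.06 ± 0.394) and in MPS-LM (22.4 ± 7.27 against 1.85 ± 0.244), and CHRD exceeded NOG in PPS-PM (3.94 ± 1.01 against 0.427 ± 0.0057).

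**Figure D3:**
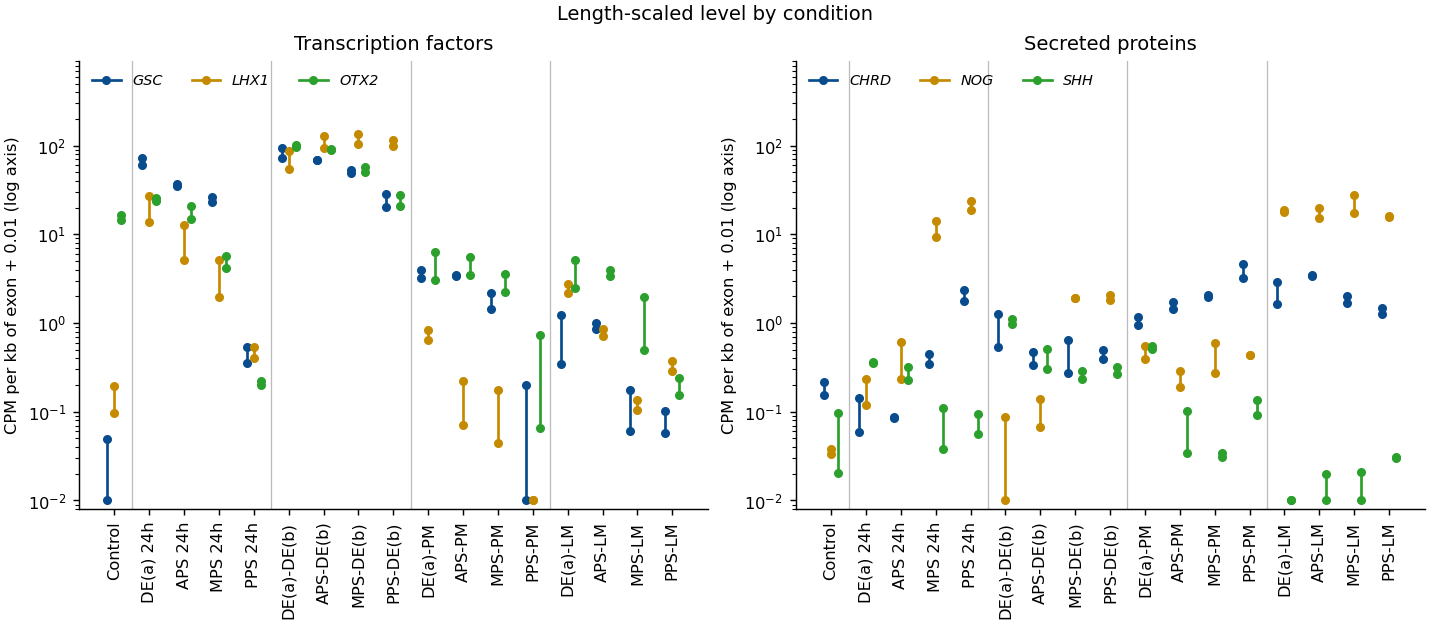
Level of 6 genes in CPM per kb of exon plus 0.01 on a log axis, in the 17 conditions; each pair of joined points shows the 2 replicates. LHX1 is at 54.5 CPM per kb or more in all 8 DE(b) libraries and has a mean of 107 CPM per kb from PPS, where OTX2 and GSC are at 24.3 and 24.6. The length used for LHX1 is of the identifier that held 12.4% of its counts.

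Whether the day 1 treatment still showed after day 2 was tested within each medium. Among the 4 day 1 treatments, 3 of 6 genes differed in DE(b) medium (16.6% of all genes), 5 of 6 in PM (7.47%) and 3 of 6 in LM (19.6%). In DE(b) the 3 genes were NOG (edgeR adjusted p = 2.38e-07), GSC (adjusted p = 0.0016) and OTX2 (adjusted p = 0.0175), while LHX1 (adjusted p = 0.575) and CHRD (adjusted p = 0.128) were not called. The OTX2 call was lost without PPS-DE(b) replicate 1 or 2 (adjusted p = 0.181 and 0.0827), and CHRD was called without DE(a)-DE(b) replicate 1 or MPS-DE(b) replicate 2 (adjusted p = 0.0281 and 0.0392). In PM NOG was the gene not called (adjusted p = 0.596), and the call for CHRD (adjusted p = 0.0129) was lost without DE(a)-PM replicate 1 or PPS-PM replicate 2 (adjusted p = 0.075 and 0.179). In LM the transcription factors GSC, LHX1 and OTX2 were called, and NOG (adjusted p = 0.677) and CHRD (adjusted p = 0.102) were not.

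PPS and DE(a), the ends of the series, were compared in each setting, a set of contrasts added after the data had been seen. At 24 h all 6 genes differed: relative to DE(a), PPS had a log2 fold change of −7.32 ± 0.44 SE for GSC (adjusted p = 2.79e-10), −7.01 ± 0.68 SE for OTX2, −5.54 ± 0.55 SE for LHX1 and −2.47 ± 0.75 SE for SHH (adjusted p = 0.0237), and of 6.90 ± 0.49 SE for NOG and 4.41 ± 0.49 SE for CHRD. The SHH call was lost without any 1 of its 4 libraries (adjusted p 0.0541 to 0.175). After DE(b) medium the difference for GSC was −1.73 ± 0.30 SE (adjusted p = 0.000315) and for OTX2 −1.98 ± 0.47 SE (adjusted p = 0.00527, but 0.0827 without PPS-DE(b) replicate 1). For LHX1 it was 0.63 ± 0.42 SE (adjusted p = 0.345) and for CHRD −1.0 ± 0.42 SE (adjusted p = 0.112). NOG was still higher from PPS, with a count ratio of 45.9 (15.4 to 225). After PM medium GSC (−5.08 ± 0.54 SE) and OTX2 (−3.53 ± 0.59 SE, or −6.30 without PPS-PM replicate 1) were still lower from PPS. LHX1 was at least 26.4-fold lower, and CHRD was higher by 1.94 ± 0.41 SE (adjusted p = 0.00374, but 0.0794 and 0.052 without DE(a)-PM replicate 1 or PPS-PM replicate 2). After LM medium OTX2 (−4.20 ± 0.68 SE) and LHX1 (−2.82 ± 0.56 SE, adjusted p = 0.00105) were lower from PPS, and NOG differed by −0.09 ± 0.34 SE (adjusted p = 0.936). In these 4 settings 16 of 24 tests were called, 4 higher and 12 lower from PPS, against 7.38% and 7.93% over all genes.

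**Figure D4:**
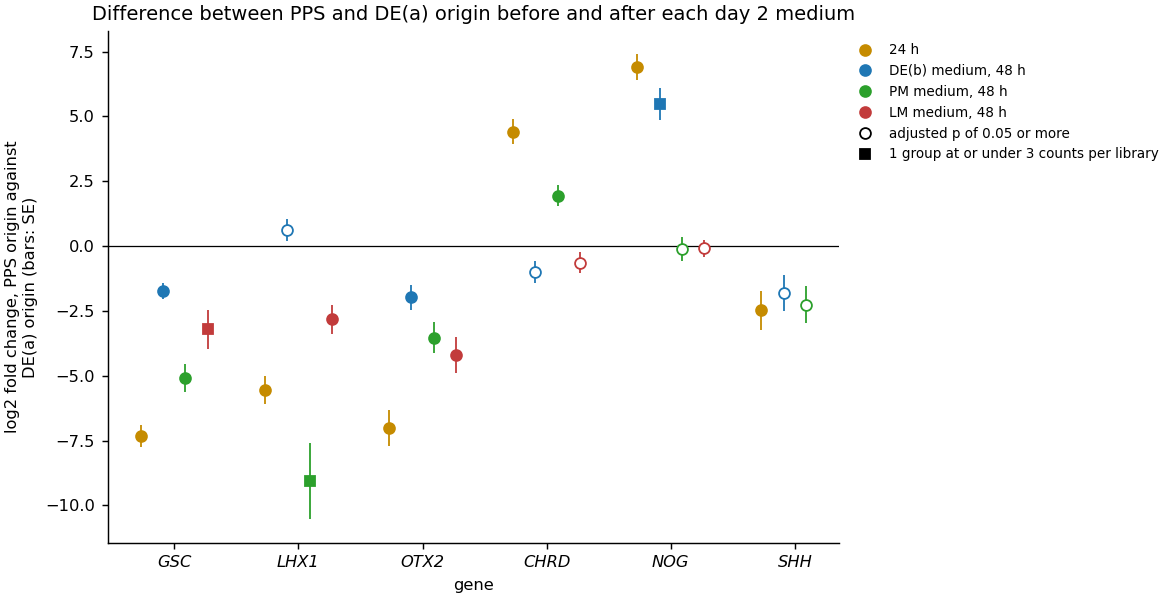
Log2 fold change between cells of PPS and of DE(a) origin for 6 genes (x axis) at 24 h and after each day 2 medium, with bars of 1 SE; open points are not called and squares have a condition at or under 3 counts per library. Among the 24 h differences (ochre), those of GSC and OTX2 are the widest, LHX1 has no called difference in DE(b) medium (blue), and NOG has none in PM and LM. SHH in LM medium, with both conditions at or under 3 counts per library, is not drawn.

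The change of these differences was tested directly. An interaction of the day 1 and day 2 treatments over the 12 conditions of 48 h was called for 4 of 6 genes, NOG (edgeR adjusted p = 2.77e-05), LHX1 (adjusted p = 0.000406), CHRD (adjusted p = 0.00315) and GSC (adjusted p = 0.00463), against 13.2% of all genes. OTX2 (adjusted p = 0.264) and SHH (adjusted p = 0.0857) were not called. SHH was called with the replicate block (adjusted p = 0.0454) and by DESeq2 (adjusted p = 0.0303), and OTX2 was called without PPS-PM replicate 1 (adjusted p = 0.0183), the PPS-PM library in which it was at 2.47 CPM. The day 2 response of PPS minus that of DE(a), also added after seeing the data, was called in 12 of 18 tests (13.8% over all genes). In DE(b) medium it was 6.17 ± 0.69 SE for LHX1, 5.59 ± 0.52 SE for GSC, 5.03 ± 0.81 SE for OTX2 and −5.41 ± 0.65 SE for CHRD. These differences include the 24 h levels, which lay far apart.

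Against the standard protocols, which were DE(a)-DE(b) for DE(b), APS-PM for PM and MPS-LM for LM, 11 of 54 tests were called, 6 higher and 5 lower, and over all genes 3.26% and 2.63%. In DE(b) none of 6 was called from APS by edgeR (1 at an unadjusted p under 0.05, and 0 by DESeq2), NOG alone from MPS (ratio 45.6, 15.2 to 224), and GSC, OTX2 and NOG from PPS. In PM no gene was called by edgeR from DE(a) (2 at an unadjusted p under 0.05 and 2 by DESeq2) or MPS (1 and 0), whereas from PPS GSC (−5.02 ± 0.54 SE, adjusted p = 6.98e-06) and OTX2 (−3.47 ± 0.59 SE, adjusted p = 0.000782) were lower. In LM, LHX1 was higher from DE(a) than from MPS by 4.33 ± 0.65 SE (adjusted p = 7.73e-05), and CHRD, NOG and SHH were called in none of the LM contrasts. This count was 7 when only the libraries compared were fitted, 18 by DESeq2 and 24 without the filter on low counts.

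Lists of related genes gave the surroundings of these results, as counts beside the median of all genes, which was 0.00 on the log2 scale in the contrasts given here. Over all genes, 7.38% of tests between PPS and DE(a) were called higher and 7.93% lower, with 24 h and the DE(b), PM and LM media pooled. Between a 48 h condition and its 24 h population the shares were 13.2% and 13.8%, pooled over all such contrasts. The list counts come from single contrasts, whose own shares may differ from these pooled ones and are not given here. Among 12 other secreted antagonists and organizer factors, 1 was higher and 5 were lower in PPS than in DE(a) at 24 h, with a median of −0.67. CER1, an antagonist of Nodal, BMP and Wnt, was at 1795 and 1320 CPM in DE(a) and 0.346 and 0 CPM in PPS (adjusted p = 2.97e-08), the same direction as GSC and the opposite of CHRD and NOG. FST, encoding the activin antagonist follistatin, was higher in PPS, at 453 and 429 CPM against 57.1 and 78.3 CPM (2.63 ± 0.66 SE, adjusted p = 0.00628). In PPS-DE(b) CER1 reached 3329 and 3856 CPM.

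Of 19 BMP ligands, targets and chordin partners, 10 were higher and 1 lower in PPS than in DE(a) at 24 h, with a median of 1.33. The BMP target MSX1 was at 712 and 783 CPM in PPS against 19.1 and 26.6 CPM in DE(a) (4.96 ± 0.42 SE, adjusted p = 2.73e-08), and BMP2 was lower in PPS (−2.0 ± 0.28 SE). In DE(a)-LM against DE(a) at 24 h, 11 were higher and 3 lower (median 1.74), and BMPER, a chordin-related BMP-binding protein, went from 0.881 and 0.483 CPM to 148 and 229 CPM (7.98 ± 0.70 SE, adjusted p = 2.52e-08). The interaction of the treatments was called for 15 of these 19 genes, against 13.2% of all genes.

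In the hedgehog pathway, 15 of 16 genes were tested. In DE(a)-DE(b), where SHH was highest, 1 was higher and 3 lower than in DE(a) at 24 h (median 0.45). PTCH1, receptor and target of hedgehog signals, was at 29.5 and 36.2 CPM in DE(a)-DE(b) and at 156 and 282 CPM in DE(a)-LM, where SHH had no count. The difference of PTCH1, DE(a)-DE(b) minus DE(a)-LM, was −2.70 ± 0.29 SE (adjusted p = 5.49e-07). GAS1, a co-receptor, and GLI3 were both higher in PPS than in DE(a) at 24 h, by 2.41 ± 0.42 SE and 2.50 ± 0.33 SE, and 5 of the 15 genes were higher and 2 lower (median 0.64).

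Among 12 other notochord and node genes, 2 were higher and 4 lower in PPS than in DE(a) at 24 h (median −1.71). TBXT was at 1041 and 1125 CPM in PPS and 259 and 298 CPM in DE(a) (1.88 ± 0.40 SE, adjusted p = 0.00169), and NODAL at 24.7 and 45.9 CPM against 356 and 288 CPM (−3.26 ± 0.37 SE, adjusted p = 1.5e-06). FOXA2, shared by node, notochord and endoderm, rose in DE(a)-DE(b) from 6.24 and 5.32 CPM to 86.0 and 125 CPM (4.12 ± 0.92 SE, adjusted p = 0.0022), as TBXT fell by 3.67 ± 0.44 SE (adjusted p = 2.43e-06). Of 12 anterior mesendoderm and endoderm factors, 1 was higher and 7 lower in PPS at 24 h (median −1.59), with EOMES at 12.2 and 31.0 CPM against 666 and 631 CPM (−4.99 ± 0.66 SE). Of 12 relatives and cofactors of GSC, OTX2 and LHX1, 10 were tested, and 3 were higher and none was lower by edgeR (median 0.30). TLE1, a corepressor, was at 87.7 and 138 CPM in PPS and 27.2 and 15.5 CPM in DE(a) (2.32 ± 0.41 SE, adjusted p = 0.000288).

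The genes most like each member were found by Pearson's r of log2(CPM + 1) over the 17 condition means, among 13730 genes, as a description of conditions that share media. For GSC they were CLMP (0.954), EOMES (0.946) and CER1 (0.945), for LHX1 CER1 (0.963), LDLRAD4 (0.956) and CPSF1P1 (0.947), and for OTX2 AFF1 (0.95), ARMC4 (0.941) and IDH1 (0.939). For NOG they were GATA3 (0.95), MBOAT2 (0.929) and GATA2 (0.929), for CHRD NSD3 (0.936), HDAC8 (0.924) and DNAJC13 (0.923), and for SHH ALG1L7P (0.893), SLC1A1 (0.884) and SLC22A15 (0.863). Between members, r was 0.90 for GSC and LHX1, 0.84 for GSC and OTX2, 0.83 for LHX1 and OTX2 and 0.46 for CHRD and NOG, while GSC and CHRD had −0.67. The levels of GSC fell in an order led by DE(a)-DE(b), APS-DE(b) and DE(a) at 24 h, and 7 of its 16 neighbouring pairs in that order had overlapping replicates. LHX1 had 7 such pairs as well, OTX2 and SHH 11, CHRD and NOG 12 and NOTO 14, so most neighbours overlapped for all members but GSC and LHX1. Such counts over all genes are not given here.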

How the data were processed

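Wild-type ESI017 libraries (17 conditions, 2 replicates each, called biological replicates in the series' design text) were analysed from the estimated count tables as deposited. According to the submitters' processing notes, the authors quantified reads with Salmon 1.10.2 on GRCh38 and summed transcripts to genes, and the deposited estimated counts are not normalized for depth or length. The sources differ on PM medium: the labels and the methods list no CHIR in it, while the study's text describes Wnt activation on day 2 and a supplementary legend gives CHIR.

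Rows sharing a symbol were summed for genes named here, counts were rounded, and 17888 genes passed filterByExpr. They went into the quasi-likelihood test of edgeR 4.0.16 under R 4.3.3 (TMM factors, a separate mean for each condition, Benjamini-Hochberg at 0.05; common dispersion 0.0608, 17 residual degrees of freedom), a procedure tested on simulated data. Members and lists were chosen with earlier results of these data known. Besides members, the text names from each list at most the 2 largest rises and falls among called genes over 10 CPM without replicate overlap, and the 3 genes most like each member. List genes shown in a second contrast (CER1 in PPS-DE(b)) follow that rule there too.

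Alternatives were RLE, no filter, a replicate block, only the libraries compared, DESeq2 1.42.0, other measures of likeness and each library left out, for which genes tested and the dispersion trend were kept from the full fit and a lone replicate is assumed to vary like the other conditions. LHX1 under separate identifiers was added after seeing the data. Promoter windows came from RefSeq, and those of LHX1 and NOG are not analysed here. Figures used Python 3.11.15 and matplotlib 3.10.9.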

Additional observations from a re-analysis of the deposited data

Results flagged for a closer look

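The effect of the day 2 medium differed between day 1 treatments for 4 of the 6 genes tested, by edgeR's test of the interaction over the 48 h conditions: NOG (adjusted p = 2.77e-05), LHX1 (adjusted p = 0.000406), CHRD (adjusted p = 0.00315) and GSC (adjusted p = 0.00463). Over all genes 13.2% were called in this test.

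The day 2 response of PPS minus that of DE(a), on the log2 scale, was tested in each medium. In DE(b) medium it was 6.17 for LHX1, 5.59 for GSC, 5.03 for OTX2 and -5.41 for CHRD. In PM medium it was 3.48 for OTX2, -2.48 for CHRD and -7.01 for NOG. In LM medium it was 2.71 for LHX1, -5.05 for CHRD and -7.00 for NOG. Each passed an edgeR adjusted p of 0.05 with 2 replicates per condition. Leaving out 1 library ended the call in 4 fits for OTX2 in PM (either PPS replicate of 24 h, DE(a)-PM replicate 2 or PPS-PM replicate 1, adjusted p 0.0654 to 0.892), where the value was 0.71 without PPS-PM replicate 1. It ended the call in 3 fits for CHRD in PM (DE(a) or PPS replicate 2 of 24 h, or PPS-PM replicate 1, adjusted p 0.0556 to 0.105). For LHX1 in LM it did so in 5 fits (DE(a) replicate 1 or PPS replicate 2 of 24 h, DE(a)-LM replicate 2, or either PPS-LM replicate, adjusted p 0.0535 to 0.119). Responses in which a condition was at or under 3 counts per library are left out here. With only the libraries compared in the fit, the calls for OTX2 in PM (adjusted p = 0.159) and CHRD in PM (adjusted p = 0.0647) were lost as well. Each value is the log2 difference of PPS from DE(a) at 48 h minus that at 24 h. It thus includes the 24 h levels, which lay far apart. The cause of these differences was not tested.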

How the results depend on the processing

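The number of called tests against the standard protocol of each fate, 11 of 54 in the full model, was 24 without the filter on low counts, 18 by DESeq2 and 7 with only the libraries compared; the cause was not tested. The other 6 counts of called tests stayed within 1.5 times of their values under RLE, no filter, DESeq2, only the libraries compared and separate LHX1 identifiers, and so did all 7 when any 1 library was left out. With separate identifiers, these counts took LHX1 from the identifier that held 12.4% of its counts. Fold changes of LHX1 were not compared in that setting, which covers 127 of the 158 called fold changes. Of 158 called fold changes of the members, none turned in direction where an alternative covered it. All 158 were called under RLE, 155 by DESeq2 and 156 without the filter. With only the libraries compared, 131 were called, 17 lost the call, and for the others the gene did not pass the filter on those libraries. Leaving out each library in turn kept 121 of them in every fit and ended the call of 37 in at least 1 fit, where an arm is then a single library. The labels tie the replicate numbers to no batch or day, although replicates 1 and 2 were deposited as separate tables. Differences between the replicates correlated by more than 0.1 in 96 of 136 pairs of conditions (median 0.16, lowest -0.20, highest 0.57), so they were shared in part, and the samples were not treated as paired because this did not hold for every pair. With the replicate block, 17 tests against the control and 14 against the standard protocols were called, and 1 call was lost, that of GSC in PPS-PM against PPS at 24 h (adjusted p = 0.0513). The interaction of the treatments for OTX2 (adjusted p = 0.264) was called without the filter (adjusted p = 2.15e-13), and the cause was not tested. A pseudocount of 0.1 kept 3 of the 3 genes most like OTX2, 2 for LHX1 and CHRD, 1 for GSC and 0 for NOG and SHH. Spearman's rho kept 1 for LHX1, OTX2, CHRD and NOG and 0 for GSC and SHH. With 2 replicates, small changes of genes near 0.128 to 0.193 CPM, such as SHH and NOTO, are at the limit of this depth.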
